A study of Malus domestica with 36 samples.

Results

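PPO is the row of a gene expression table that carries the symbol of a polyphenol oxidase of apple, the gene that RefSeq also lists as MdPPO1. It was chosen by that symbol, as 1 gene of 57423 in the table, and was among the 32923 genes that passed the filter on low values. RNA was taken from the peel of apples of the genotype 'Granny Smith'. The 12 groups cross DCA_CF storage at under 1% oxygen, ULO storage at 1% oxygen and RA storage, which the labels do not expand, with the times T2 and T1 and with the presence or absence of the tag SL, whose meaning is not given. Each group has 3 libraries, which the protocol calls biological replicates, and the fruit of all groups are of 1 genotype. How many fruits went into a library and how long the storage lasted are not stated.

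Polyphenol oxidases are copper enzymes of the plastid. They oxidise phenols such as chlorogenic acid and catechin to quinones, which go on to form brown pigments, as in the browning of stored apple peel known as superficial scald. In intact cells enzyme and phenols are kept apart, since the phenols lie in the vacuole, and damage to the membranes brings them together. The levels below are RNA levels in whole peel, where fewer cells of a type and less RNA per cell cannot be told apart, and enzyme activity was not measured in the table.

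Summed values ran from 689868 to 790211 FPKM per library (fragments per kilobase, a level corrected for gene length and library size), with 33512 to 37276 genes above 0. As read totals are not in the table, the depth of a library is unknown and no counting interval is given. Of 9 names listed as peel markers, 5 matched a gene in the table. They are AFS1 (LOC103446592), the synthase of alpha-farnesene, at a mean of 811 FPKM over the 36 libraries, OSC1, an oxidosqualene cyclase, at 460 FPKM, its relative OSC3 (LOC103432258) at 234 FPKM, the lipid transfer allergen MALD3 (LOC103450745) at 14426 FPKM, and the transcription factor gene MYB93 (LOC103433420), which was weak at 4.02 FPKM. PPO libraries of the same group lay close together: the coefficient of variation (SD over mean) was between 0.208% and 7.38% in the 12 groups. Only the spread between these libraries enters the tests below.

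PPO was a strongly expressed gene in RA storage and stood far lower in most low oxygen groups. In the 12 RA libraries it stood between 915 and 1339 FPKM, with a median of 1106 FPKM. In the 24 DCA_CF and ULO libraries it stood between 5.19 and 272 FPKM, with a median of 14.3 FPKM. The ranges of the RA and the low oxygen libraries did not overlap. Leaving aside the 3 DCA_CF libraries with SL at T1, the other 21 low oxygen libraries lay between 5.19 and 25.4 FPKM.

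At T2, the 3 DCA_CF libraries without SL held 11.2, 10.03 and 11.1 FPKM of PPO, the 3 ULO libraries held 23.0, 23.0 and 22.9 FPKM, and the 3 RA libraries held 1301, 1299 and 1332 FPKM. With SL at T2, PPO was at 6.46, 7.02 and 6.44 FPKM in DCA_CF, at 9.22, 9.13 and 8.30 FPKM in ULO, and at 927, 946 and 948 FPKM in RA. Within each SL state at T2 the order was therefore the same, with DCA_CF lowest, ULO next and RA far above both, and the libraries of these groups did not overlap.

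At T1, PPO was at 23.9, 25.4 and 23.3 FPKM in DCA_CF, at 19.6, 17.3 and 17.9 FPKM in ULO, and at 1323, 1339 and 1263 FPKM in RA, all without SL. With SL at T1 the 3 DCA_CF libraries held 272, 266 and 268 FPKM, while ULO held 5.96, 5.86 and 5.19 FPKM and RA held 950, 943 and 915 FPKM. DCA_CF with SL at T1 thus stood alone between the RA groups and all other low oxygen groups, and its 3 libraries had an SD of 2.88 FPKM.

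**Figure D1:**
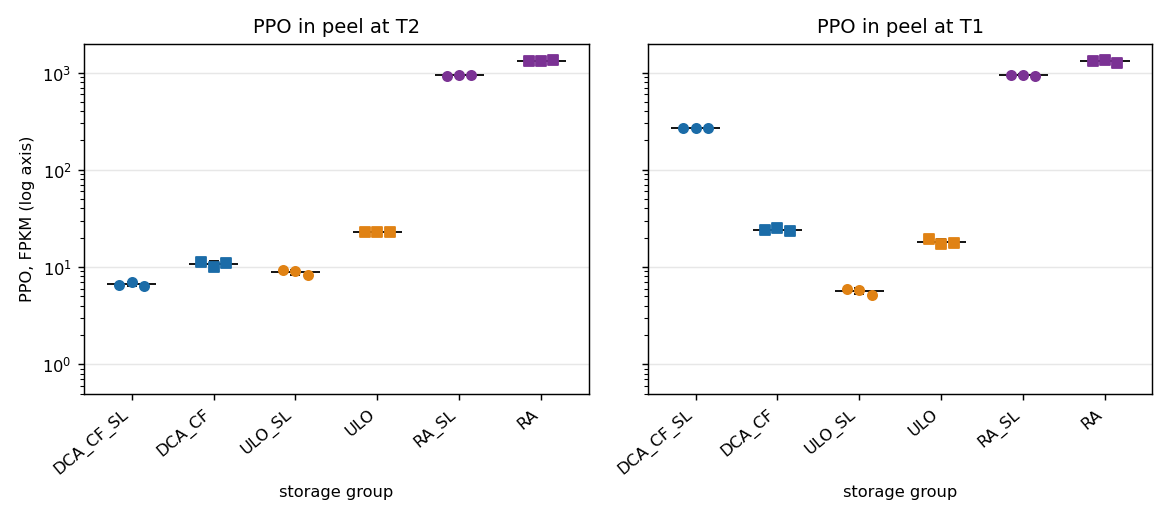
PPO level (FPKM, log axis) in each library at T2 and at T1, by storage group; points are libraries (circles with SL, squares without), and lines with bars are the mean and SD of 3 libraries. The RA groups lie at 915 FPKM or more, DCA_CF with SL at T1 lies at 266 to 272 FPKM, and every other low oxygen library lies at 25.4 FPKM or less.

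Ordered by mean level, the groups were RA at T2 (1311 ± 18.6 FPKM), RA at T1 (1308 ± 39.8), RA with SL at T2 (940 ± 11.7), RA with SL at T1 (936 ± 18.7), DCA_CF with SL at T1 (269 ± 2.88), DCA_CF at T1 (24.2 ± 1.10), ULO at T2 (23.0 ± 0.0479), ULO at T1 (18.2 ± 1.17), DCA_CF at T2 (10.8 ± 0.654), ULO with SL at T2 (8.88 ± 0.508), DCA_CF with SL at T2 (6.64 ± 0.329) and ULO with SL at T1 (5.67 ± 0.418), each as mean ± SD over n = 3 libraries. Neighbours in this order overlapped in 2 places, between the RA groups without SL at both times and between the RA groups with SL at both times. DCA_CF at T1 and ULO at T2 did not overlap, but their means differed by only 1.10 times the larger SD. All other neighbours were at least 2.32 such SDs apart. From the lowest to the highest group PPO spanned 231-fold. In its own library PPO ranked between place 28 and place 44 of the 57423 genes by level in RA without SL, between 302 and 312 in DCA_CF with SL at T1, and between 13783 and 14751 in ULO with SL at T1. It made up 0.167% to 0.187% of the summed FPKM of an RA library without SL.

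To ask how storage at low oxygen changed PPO, each low oxygen group was compared with RA at the same time and SL state. PPO was lower in 8 of 8 comparisons. Tests were made with limma on log2(FPKM + 1) over all 36 libraries, with p adjusted over all genes tested, and the threshold was an FDR of 0.05. The standard error of a PPO log2 fold change was 0.0466 in every comparison of a pair of groups. The log2(FPKM + 1) scale understates the change of a low level, so the ratio of the mean FPKM is given beside each value. These comparisons called between 44.7% and 69.4% of all genes tested, in either direction, so the call of PPO is shared with a large part of the table, and its rank by fold change is given beside it.

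Without SL at T1, PPO was lower in DCA_CF than in RA by a log2 fold change of -5.70 (54.1-fold, adjusted p = 7.16e-34, in a comparison that called 67.8% of genes). In ULO the log2 fold change from RA was -6.09 (71.7-fold, adjusted p = 3.68e-34, with 62.4% of genes called). Only 100 of the 32923 genes had a more negative fold change in the DCA_CF comparison, and 63 had one in the ULO comparison. Without SL at T2, PPO was lower in DCA_CF by -6.80 (122-fold, adjusted p = 2.14e-35, with 69.4% of genes called) and in ULO by -5.77 (57.0-fold, adjusted p = 4.56e-34, with 68.6% called). The means of these 4 low oxygen groups came to between 0.824% and 1.85% of the mean of RA without SL at T1.

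With SL at T1, the drop was far smaller in DCA_CF than in ULO. PPO in DCA_CF_SL was 3.48-fold below RA_SL (log2 fold change -1.80, adjusted p = 4.20e-22, with 46.2% of genes called). In ULO_SL it was 165.0-fold below RA_SL (-7.14, adjusted p = 6.15e-36, with 50% of genes called), and 18 genes had a more negative fold change. With SL at T2 the low oxygen regimes lay close together. PPO was lower in DCA_CF_SL than in RA_SL by -6.95 (142-fold, adjusted p = 1.03e-35, with 46.9% called) and lower in ULO_SL by -6.58 (106-fold, adjusted p = 5.08e-35, with 44.7% called). In these T2 comparisons 17 and 21 genes had a more negative fold change than PPO. The comparisons of DCA_CF and of ULO with RA share the RA libraries.

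The low oxygen regimes also differed from each other at every time and SL state. At T1 without SL, PPO was 1.33-fold higher in DCA_CF than in ULO (0.39, adjusted p = 1.04e-07, with 40.9% of genes called). With SL at T1 it was 47.4-fold higher in DCA_CF_SL than in ULO_SL (5.34, adjusted p = 9.11e-33, with 31.3% called), and 38 genes had a larger positive fold change. At T2 the sign was the other way: PPO was 2.13-fold lower in DCA_CF than in ULO (-1.03, adjusted p = 7.77e-16, with 23% called) and 1.34-fold lower in DCA_CF_SL than in ULO_SL (-0.37, adjusted p = 5.42e-06, with 3.69% called). The last comparison called few genes, and its call on PPO was lost when only the 6 libraries compared were fitted (adjusted p = 0.113).

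**Figure D2:**
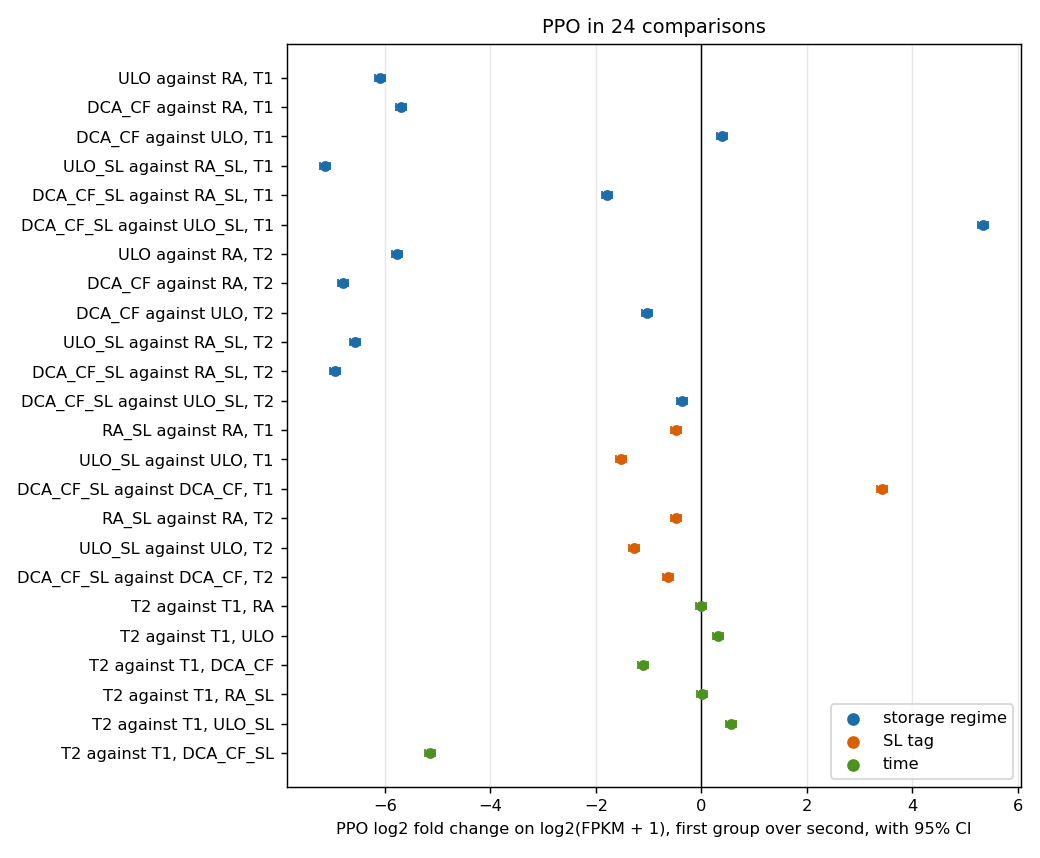
Log2 fold change of PPO on the log2(FPKM + 1) scale, first named group over the second, in 24 comparisons of storage regime, SL tag and time; points are estimates and bars are 95% confidence intervals of the limma fit. All 8 comparisons with RA lie below 0, between -7.14 and -1.80, and 5 of the 24 comparisons lie above 0 past the threshold.

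To see what went with the SL tag, groups with SL were compared with those without. PPO was lower with SL in 5 of 6 comparisons and higher in 1, DCA_CF at T1. In RA the log2 fold change with SL was -0.48 (1.40-fold lower, adjusted p = 5.82e-10, with 61.6% of genes called) at T1 and -0.48 (1.39-fold lower, adjusted p = 7.10e-10, with 58.8% called) at T2. In ULO it was -1.53 (3.22-fold lower, adjusted p = 3.85e-21, with 65.3% called) at T1 and -1.28 (2.59-fold lower, adjusted p = 4.02e-19, with 61.8% called) at T2. In DCA_CF, PPO was higher with SL by 3.42 at T1 (11.1-fold, adjusted p = 5.66e-29, with 66.8% called) and lower by -0.62 at T2 (1.62-fold, adjusted p = 2.91e-12, with 62.2% called). The T2 value in DCA_CF fell in size to -0.36 with RLE size factors and to -0.35 with upper quartile scaling.

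The response to SL differed between regimes at T1 for each pair. The test of this difference gave 3.90 ± 0.0659 (SE) for DCA_CF against RA (adjusted p = 1.51e-26, with 59% of genes called), 4.95 for DCA_CF against ULO (adjusted p = 3.24e-28, with 41.5% called) and -1.05 for ULO against RA (adjusted p = 1.49e-13, with 51.2% called), with the same SE. At T2 the difference was -0.80 for ULO against RA (adjusted p = 3.50e-11, with 56% called) and 0.66 for DCA_CF against ULO (adjusted p = 2.16e-08, with 14.9% called). Between DCA_CF and RA at T2 the difference was -0.15, with a 95% interval of -0.28 to -0.010, and did not pass the threshold (adjusted p = 0.0621, with 56.6% of genes called). It passed without DCA_CF replicate b at T2 (-0.19) or without DCA_CF_SL replicate b at T2 (-0.18), and its sign was positive with RLE size factors (0.14).

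Over time, PPO was lower at T2 than at T1 in DCA_CF, higher in ULO and not past the threshold in RA. In RA without SL the log2 fold change of T2 over T1 was 0.0032, with a 95% interval of -0.093 to 0.099 (adjusted p = 0.977, with 48.6% of genes called). In RA with SL it was 0.0070, with an interval of -0.089 to 0.10 (adjusted p = 0.946, with 35.5% called). Neither change passed the threshold, and the sign of both turned with the scaling or when 1 library was left out. In ULO, PPO was higher at T2, by 0.32 without SL (1.26-fold, adjusted p = 8.72e-07, with 65.2% called) and by 0.57 with SL (1.57-fold, adjusted p = 1.17e-10, with 29.7% called). The first of these values was 0.18 with RLE size factors and 0.18 with upper quartile scaling.

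In DCA_CF without SL the change from T1 was -1.10 (2.24-fold lower, adjusted p = 7.07e-18, with 69.2% of genes called). With SL it was -5.14 (40.5-fold lower, adjusted p = 1.31e-32, with 40.7% called), and 71 genes had a more negative fold change. The test of the difference between regimes gave -1.10 for DCA_CF against RA without SL (adjusted p = 3.40e-14, with 61.6% called), -1.42 for DCA_CF against ULO (adjusted p = 1.70e-15, with 34.2% called) and 0.32 for ULO against RA (adjusted p = 0.000177, with 55.2% called). The last of these was 0.16 with RLE size factors (adjusted p = 0.0401). With SL it gave -5.15 for DCA_CF against RA (adjusted p = 1.17e-28, with 32.9% called), -5.71 for DCA_CF against ULO (adjusted p = 9.21e-30, with 22.8% called) and 0.56 for ULO against RA (adjusted p = 1.37e-07, with 25.8% called).

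The intermediate level of PPO in DCA_CF with SL at T1 was set beside other genes in the same libraries, in a description added after the levels had been seen. On the linear FPKM scale, PPO in DCA_CF_SL lay 28.3% of the way from ULO_SL to RA_SL. Another 374 genes had at least 20 FPKM in RA_SL at T1 and at most 10% of that in ULO_SL. Their median place in DCA_CF_SL was 27.1%, with quartiles of 14.4% and 47.6%, and 197 of them lay below PPO. At T2 the same measure gave -0.24% for PPO and a median of -0.24% over 326 genes. PPO thus lay within the quartiles of these genes at both times. For 46 genes higher in ULO_SL by the same rule at T1, the median place was 31.3%. What these genes have in common beyond the rule was not tested.

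**Figure D3:**
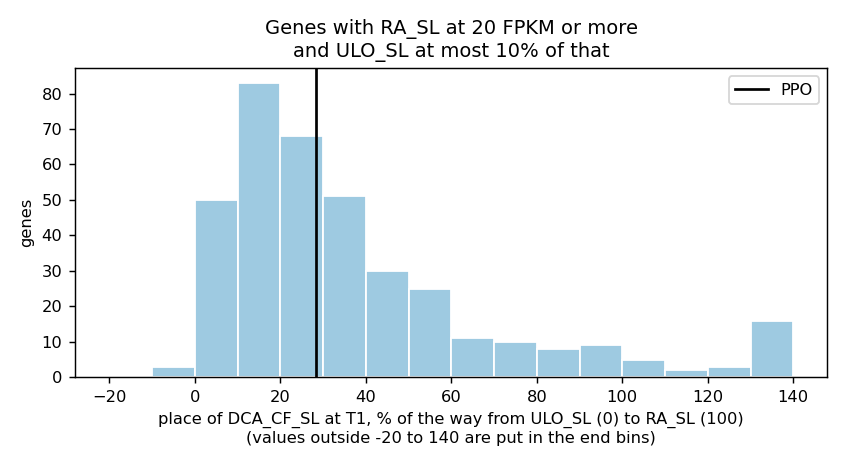
Histogram of the place of DCA_CF_SL at T1 on the linear FPKM scale, from 0% at the level of ULO_SL to 100% at the level of RA_SL, for 374 genes with at least 20 FPKM in RA_SL and at most 10% of that in ULO_SL. The line marks PPO at 28.3%, close to the median of 27.1%.

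Genes with a pattern like that of PPO were sought by Pearson's r over the 12 group means of log2(FPKM + 1), among 19629 genes with a mean of at least 2 on that scale. The 12 points share libraries and scaling between genes, and r is given as a description. In all, 147 genes had an r of at least 0.95, 356 had one of at least 0.9, and 24 had one of -0.9 or below. The highest were LOC103433546 (0.993), LOC103434645 (0.992), LOC103445443 (0.9905), LOC103427104 (0.990), LOC103410311 (0.990) and LOC108173724 (0.990), none of which has a name in the tables used here. The first of them stood at 0.372 FPKM in DCA_CF, 1.39 FPKM in ULO and 289 FPKM in RA at T2 without SL, and at 42.6 FPKM in DCA_CF_SL and 0.0452 FPKM in ULO_SL at T1. LOC103434645 reached a level above that of PPO, with 2044 FPKM in RA without SL at T2. In 4 of these 6 genes DCA_CF_SL at T1 held between 25.9% and 33.2% of the RA_SL level. The exceptions were LOC103410311 at 40.9% and LOC108173724 at 7.73%. These 6 genes were picked by r over the same group means, so a pattern shared with PPO follows from that choice. The lowest r values were those of LOC103451835 (-0.952), LOC103446574 (-0.940) and LOC103401340 (-0.919). LOC103451835 stood at 211 FPKM in DCA_CF, 201 FPKM in ULO and 49.0 FPKM in RA at T2 without SL.

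Among the 173 compared genes that the table itself lists by a symbol and not by a LOC identifier, CWI had the highest r (0.962). CWI is the usual symbol of a cell wall invertase, which splits sucrose outside the cell. CWI was lower than RA in all 8 low oxygen comparisons and stood at 15.3 FPKM in DCA_CF_SL, 0.0207 FPKM in ULO_SL and 75.6 FPKM in RA_SL at T1. Over time in RA without SL it was higher at T2, at 317 FPKM, against 80.0 FPKM at T1 (log2 fold change 1.97, adjusted p = 3.62e-16), where PPO did not pass the threshold. The transcription factor genes WRKY6 (r = 0.951), WRKY11 (0.9225) and DOF7 (0.916) came next, followed by GK (0.832) and RIN4-2 (0.829). WRKY factors take part in defence and stress responses in plants. WRKY6 was lower than RA in all 8 low oxygen comparisons and was at 8.20 FPKM in DCA_CF, 6.61 FPKM in ULO and 45.0 FPKM in RA at T2 without SL. CWI and WRKY6 were picked by r over these same group means, so their lower levels than in RA follow from that choice. The 8 comparisons called 44.7% to 69.4% of all genes.

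**Figure D4:**
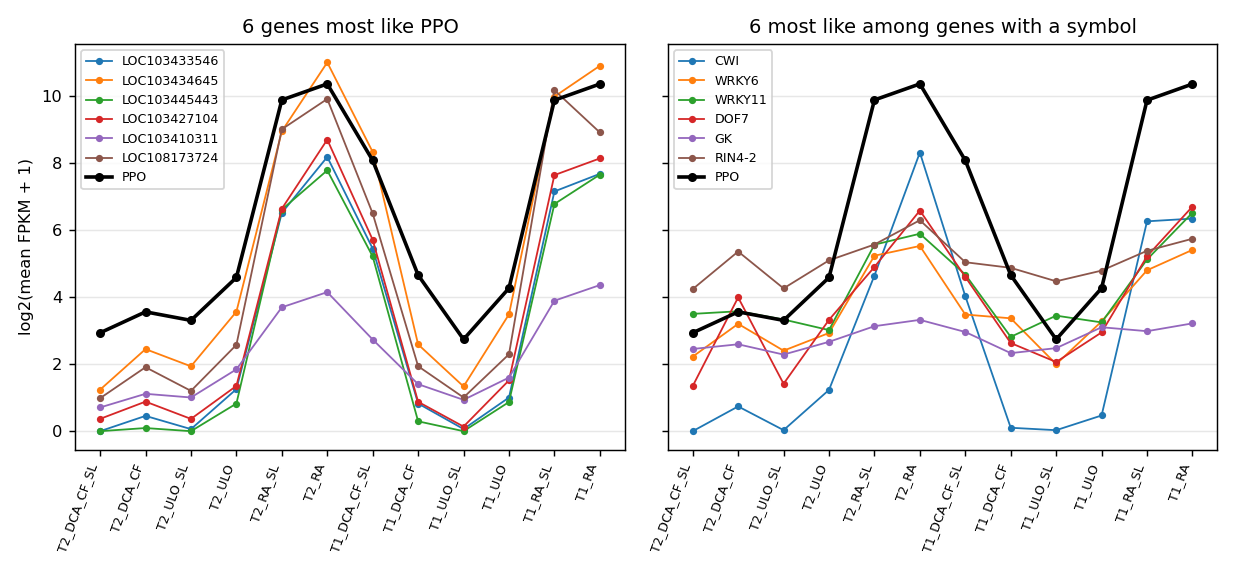
Mean level of PPO (black) and of the 6 genes with the highest r to it (left) and the 6 with the highest r among genes the table lists by a symbol (right), as log2(mean FPKM + 1) in each of the 12 groups; lines only join the points of a gene. Genes on the left share the high RA groups and the intermediate DCA_CF_SL group at T1, which follows from their choice by r. GK and RIN4-2 on the right vary much less than PPO.

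The genes next to PPO were looked at because polyphenol oxidase genes often lie in clusters in plant genomes and near copies can share reads. This step was added after values had been seen. Of the 10 genes on each side of PPO in the RefSeq order of apple (assembly GDT2T_hap1, which need not be the build behind the table), 13 had a row in the table and 10 were tested. Only 1 of these 10, LOC103412479, had an r of at least 0.9 to PPO (0.921). LOC103446447, 2 steps away, was higher in all 8 low oxygen comparisons (r = -0.6135), which called 44.7% to 69.4% of all genes. The r was -0.602 for LOC103446445, -0.125 for LOC103446451, 0.633 for LOC103446452 and 0.489 for LOC103446453. On one side, LOC103412438, LOC103412479 and LOC103429692, all protein coding, lay 3, 5 and 9 steps from PPO. These genes were high in RA like PPO and do not stand for all neighbours. Their products are not named in the tables used here, and no sequence was at hand to compare them with PPO.

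LOC103412438 was at 33.6, 33.9 and 35.8 FPKM in DCA_CF_SL, at 7.28, 6.32 and 7.38 FPKM in ULO_SL and at 147, 146 and 144 FPKM in RA_SL at T1. LOC103429692 was at 28.5, 26.6 and 28.0 FPKM in DCA_CF_SL, at 2.22, 2.26 and 2.25 FPKM in ULO_SL and at 173, 170.0 and 176 FPKM in RA_SL at T1. Both genes were lower than RA in all 8 low oxygen comparisons, like PPO. Those comparisons called 44.7% to 69.4% of all genes. As both genes are named here for being high in RA, their lower levels in low oxygen follow from that choice. Both had DCA_CF_SL at T1 between ULO_SL and RA_SL. Unlike PPO, they were higher with SL in all 6 comparisons, which called 58.8% to 66.8% of all genes. In RA at T2, LOC103429692 was at 199 FPKM with SL and 62.7 FPKM without (log2 fold change 1.65 ± 0.0530 SE, adjusted p = 1.89e-20), and LOC103412438 was at 163 FPKM with SL and 91.7 FPKM without (0.82 ± 0.0675 SE, adjusted p = 2.17e-11). In the same comparison PPO was lower with SL, as given above. Whether the response to SL differed between PPO and these genes was not tested.

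As a share of PPO, LOC103412438 was 2.50% in DCA_CF, 3.82% in ULO and 7.59% in RA without SL at T1, and it was 156% in DCA_CF, 116% in ULO and 17.3% in RA with SL at T2. The ratio between these genes was thus not constant across groups. LOC103412479 was uneven within groups. It was at 115.6, 0 and 110 FPKM in the 3 libraries of RA with SL at T2 and at 42.6, 0 and 40.1 FPKM in those of RA without SL. In the 3 DCA_CF libraries with SL at T1 it was at 16.6, 0 and 0 FPKM. A value listed at 0 beside such replicates can be a failed estimate. LOC103412479 passed the threshold, as lower, in 6 of the 8 low oxygen comparisons, which called 44.7% to 69.4% of all genes. It passed the filter on low values only with the help of RA libraries. Its lower values against RA, and with them its high r to PPO, follow from that. On the other side of PPO, the next gene, LOC103446553, was weakly expressed (r = 0.8445). It was at 0.215, 0.290 and 0.188 FPKM in DCA_CF_SL and at 0.192, 0.274 and 0.320 FPKM in RA_SL at T1, and was listed at 0 in all ULO_SL libraries at T1. Without SL at T1 it was at 1.04, 1.13 and 1.25 FPKM in RA and listed at 0 in DCA_CF and ULO. LOC103446553 was lower in 7 of 8 low oxygen comparisons, which called 44.7% to 69.4% of all genes. With SL it was lower in 2 of 6 comparisons, both in RA, and higher in 1, DCA_CF at T1. These SL comparisons called 58.8% to 66.8% of all genes. LOC103446553 reached 1 FPKM only in libraries of RA without SL and passed the filter on low values through them. Its lower values against RA without SL follow from that. On the same side, 4 steps away, the transcription factor gene NAC2 was at 105 FPKM in DCA_CF, 101 FPKM in ULO and 27.6 FPKM in RA without SL at T1, higher in both low oxygen groups. One RefSeq gene, the long non-coding RNA LOC139188871, overlaps PPO. It has no row in the table, and as the libraries were not directional its reads could not be told from those of PPO.

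**Figure D5:**
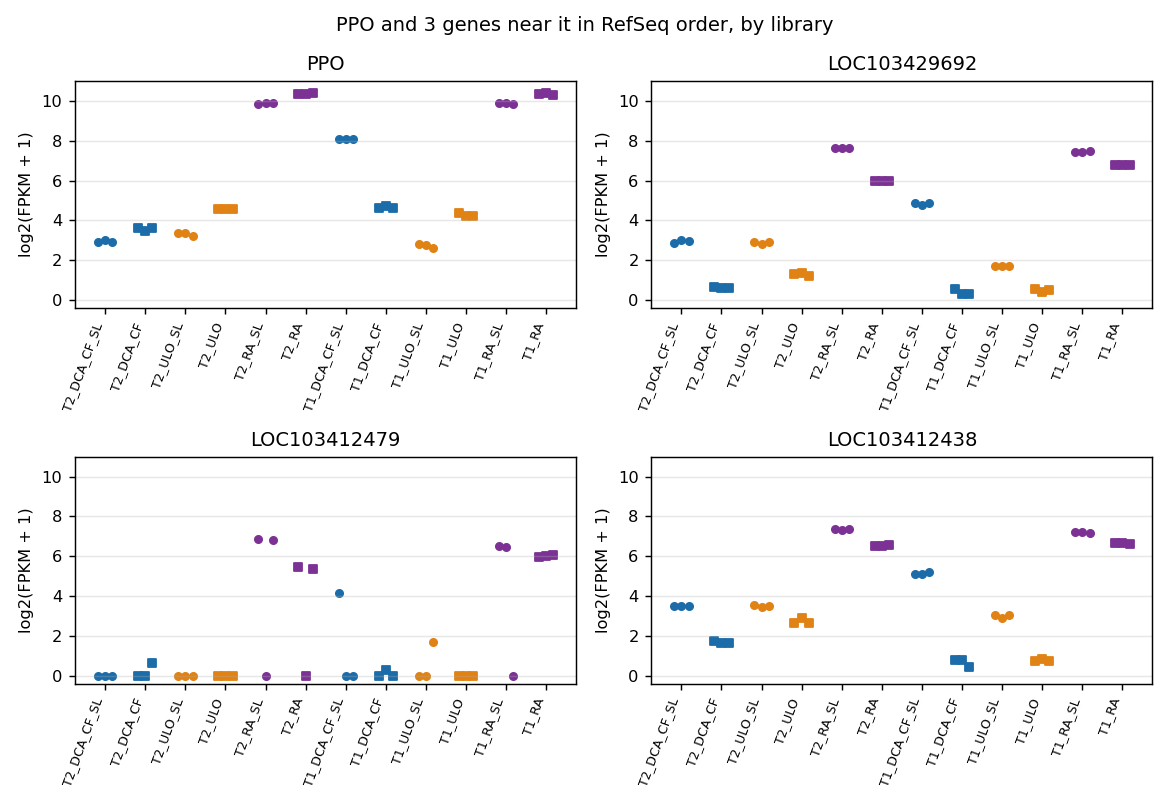
Level of PPO and of 3 genes near it in RefSeq order, as log2(FPKM + 1), in each of the 36 libraries; circles mark groups with SL and squares groups without. All 4 genes are high in RA groups, LOC103429692 and LOC103412438 are higher with SL than without in every regime and time, and LOC103412479 is listed at 0 in some libraries beside high replicates. Other genes near PPO, not shown, did not all share this pattern, and LOC103446447 and NAC2 were higher in all 8 low oxygen comparisons. The low oxygen comparisons called 44.7% to 69.4% of all genes, and the SL comparisons 58.8% to 66.8%.

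The phenols that polyphenol oxidase acts on come from the phenylpropanoid and flavonoid pathways, and lists of named genes of these and other scald related pathways were set beside PPO. The lists were drawn up with earlier results of these data known. No laccase and no other polyphenol oxidase carries a name in the table, so PPO was the only member of its own list. Of 16 flavonoid genes in the table, 15 were tested. Without SL, 3 were higher and 7 lower in DCA_CF than in RA at T1 (median log2 fold change -0.53, with -0.028 over all genes), and 3 were higher and 7 lower in ULO (median -0.24, with 0.026 over all genes). At T2 without SL, 5 were higher and 5 lower in DCA_CF (median 0.082, with 0.24 over all genes) and 6 higher and 4 lower in ULO (median 0.0041, with 0.20 over all genes). In these comparisons 10 of 15 members were called, beside 62.4% to 69.4% of all genes.

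With SL at T2, 1 flavonoid gene was higher than in RA and 13 were lower in DCA_CF (median -3.38, with -0.028 over all genes), and 1 was higher and 13 were lower in ULO (median -3.42, with -0.034 over all genes). In these comparisons 46.9% of all genes were called in DCA_CF and 44.7% in ULO. LAR2, ANS (LOC103437326) and UFGT (LOC103440008) passed the filter on low values only through RA with SL at T2. They stood there at 6.89, 85.9 and 3.47 FPKM. Their lower levels in DCA_CF and ULO follow from that, and the counts and medians with SL at T2 include them. With SL at T1 there were 5 higher and 5 lower in DCA_CF (median 0.050, with 46.2% of all genes called) and 2 higher and 6 lower in ULO (median -0.11, with 50% of all genes called). The chalcone synthase gene LOC103421794, which opens the flavonoid pathway, was at 1.09 FPKM in DCA_CF, 1.13 FPKM in ULO and 617 FPKM in RA with SL at T2, but at 1.64, 1.00 and 1.11 FPKM in the same regimes with SL at T1. PPO in RA_SL was at 940 FPKM at T2 and 936 FPKM at T1. Over the 12 groups the r to PPO was 0.314 for LOC103421794, 0.391 for the flavanone hydroxylase F3H (LOC103400025), 0.365 for MdF3H (LOC103436139), 0.802 for UGT71A15 (LOC103441425) and -0.526 for UGT88F1 (LOC103402192).

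UGT71K1 (LOC103447413), a glucosyltransferase that acts on the dihydrochalcone phloretin, had an r of 0.989 to PPO and is named here because of that value. It was at 4.60 FPKM in DCA_CF, 4.52 FPKM in ULO and 65.4 FPKM in RA at T2 without SL, and at 15.7 FPKM in DCA_CF_SL, 2.05 FPKM in ULO_SL and 38.6 FPKM in RA_SL at T1. It was lower in 8 of 8 low oxygen comparisons, which called 44.7% to 69.4% of all genes. With SL it was lower in 5 of 6 comparisons and higher in DCA_CF at T1 (log2 fold change 1.35 ± 0.0663 SE, adjusted p = 2.10e-16). The SL comparisons called 58.8% to 66.8% of all genes. As UGT71K1 was picked by r over the same group means, directions shared with PPO follow from that choice. Unlike PPO, UGT71K1 did not differ past the threshold between DCA_CF and ULO at T2, either without SL (0.025, adjusted p = 0.875) or with SL (0.046, adjusted p = 0.888).

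The remaining lists are given as counts of members past the threshold against RA. Over all genes, 67.8% were called in DCA_CF and 62.4% in ULO at T1 without SL, 69.4% and 68.6% at T2 without SL, 46.2% and 50% at T1 with SL, and 46.9% and 44.7% at T2 with SL, in the same order of regimes. The median log2 fold change over all genes lay between -0.034 and 0.24 in these comparisons.

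Of 17 genes of ethylene synthesis and perception, without SL, 5 were higher and 4 lower in DCA_CF at T1, and 9 were higher and 3 lower in ULO. At T2 without SL, 9 were higher and 6 lower in DCA_CF, and 9 were higher and 4 lower in ULO. With SL, 7 were higher and 2 lower in DCA_CF and 6 higher and 6 lower in ULO at T1, while 7 were higher and 5 lower in both at T2. The medians of this list lay between 0.013 and 0.24. PPO, by contrast, was lower in each of these 8 comparisons. MdACS-5B (LOC103439201), a member of this list, had a mean of 1 FPKM or more only in RA without SL. It stood there at 2.99 FPKM at T1 and 7.78 FPKM at T2, and passed the filter on low values only with the help of RA libraries. Its lower levels against RA without SL follow from that, and the counts and medians include it.

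Of 5 genes of fermentation and low oxygen, without SL, 3 were higher and 1 lower in DCA_CF (median 0.78) and 2 higher and 2 lower in ULO (median -0.037) at T1. At T2 without SL, 1 was higher and 4 were lower in both, with medians of -1.96 in DCA_CF and -2.11 in ULO. With SL, 3 were higher and 2 lower in DCA_CF (median 0.52) and 1 higher and 3 lower in ULO (median -0.39) at T1, and 1 was higher and 3 were lower in both at T2 (medians -0.84 in DCA_CF and -0.63 in ULO). GAD3, a member of this list, had a mean of 1 FPKM or more only in RA without SL, at 3.50 FPKM at T1 and 9.42 FPKM at T2. It passed the filter on low values through those libraries. Its lower levels in DCA_CF and ULO without SL follow from that, and the counts and medians include it. The difference between the regimes over this list was not tested.

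Of 4 genes of the farnesene and mevalonate pathway, without SL, 2 were higher and 1 lower in DCA_CF and 2 higher and 2 lower in ULO at T1, and 1 was higher and 3 were lower in both at T2. With SL, 1 was higher and 2 lower in DCA_CF and none higher and 2 lower in ULO at T1, and 1 was higher and 2 were lower in both at T2. FPPS, 1 of these 4 genes, was uneven between libraries, with an SE of its log2 fold change of 1.01, against 0.0466 for PPO. AFS1, which makes the farnesene whose oxidation is linked to scald, had an r of -0.141 to PPO over the 12 groups. AFS1 is also counted among the peel markers. Among the 5 peel markers, without SL, 2 were higher and 2 lower in DCA_CF and 2 higher and 3 lower in ULO at T1, and 2 were higher and 3 lower in both at T2. With SL, 1 was higher and 4 lower in DCA_CF and 1 higher and 3 lower in ULO at T1, and 2 were higher and 3 lower in both at T2. The part of the peel markers in the PPO result was not tested. Finally, 1 gene of phenylpropanoid synthesis, matched by the synonym CAD (LOC103413149), was lower in all 8 comparisons. The 1 antioxidant gene with a matching name, DHAR, did not pass the filter on low values.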

How the data were processed

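Peel RNA was sequenced in 36 libraries that do not keep the strand, per the labels' protocols. The values deposited by the authors are read as FPKM, because they are not whole numbers and sum to different totals. TPM with genes left out cannot be told apart from FPKM here. HISAT2, StringTie and DESeq2 are named, without versions, per the submitters' processing notes, and the genome build is not given in the sources used here. Column headings write DCA where the sample titles write DCA_CF, and all columns were matched by time, SL tag and letter.

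From these values, log2(FPKM + 1) was fitted with limma 3.58.1 in R 4.3.3, with 12 group means and a variance trend. The filter on low values asked for 1 FPKM or more in 3 or more libraries and left 32923 of 57423 genes. In all 36 comparisons p was adjusted by Benjamini-Hochberg over all genes tested, at an FDR of 0.05. PPO was named by its symbol, and genes like it were the 6 with the highest r, the 3 with the lowest and the 6 with the highest r among those the table lists by a symbol. The gene and the lists were chosen with earlier results of these data known. Genes beside PPO, its place between ULO_SL and RA_SL, UGT71K1 and the fit without DCA_CF_SL at T1 were chosen after values were seen. A planned list of genes with a PPO-like protein was not run, as no sequences were used here.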

Additional observations from a re-analysis of the deposited data

Results flagged for a closer look

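The change of PPO with SL or with time differed between storage regimes in 11 of 12 tests of the difference itself, on the log2(FPKM + 1) scale. For SL at T1 the difference was 3.90 for DCA_CF against RA, 4.95 for DCA_CF against ULO and -1.05 for ULO against RA. For SL at T2 it was 0.66 for DCA_CF against ULO and -0.80 for ULO against RA. For time without SL it was -1.10 for DCA_CF against RA, -1.42 for DCA_CF against ULO and 0.32 for ULO against RA, the last of which was 0.16 with RLE size factors (adjusted p = 0.0401). For time with SL it was -5.15 for DCA_CF against RA, -5.71 for DCA_CF against ULO and 0.56 for ULO against RA. The 4 largest of these in size all include the DCA_CF libraries with SL at T1.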

How the results depend on the processing

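Over the 36 comparisons of PPO, 554 of 568 alternative values kept the direction and the side of the threshold. Fits without the filter, with a replicate block, of the compared libraries alone or without DCA_CF_SL at T1 left the estimate unchanged. They could move only p. Another 288 values left 1 library out, with shifts from -0.0529 to 0.0529. Scaling and the pseudocount could move the estimate more, with shifts from -0.2525 to 0.2825 with RLE size factors. The difference of the SL response between DCA_CF and RA at T2 passed the threshold when libraries were scaled to an equal total (-0.19) and with a pseudocount of 0.1 (-0.21), and its sign turned with RLE size factors (0.14) and upper quartile scaling (0.083). With 1 library left out it ran from -0.19 to -0.12. DCA_CF_SL against ULO_SL at T2 (-0.37) missed the threshold when the compared libraries were fitted alone. T2 against T1 in RA, which did not pass, turned sign with upper quartile scaling (-0.033) and in RA_SL with RLE size factors (-0.050), upper quartile scaling (-0.056) and the equal total (-0.017). With 1 library left out these ran from -0.022 to 0.020 in RA and from -0.0094 to 0.018 in RA_SL. The cause was not tested. Replicate letters did not pair libraries: 0 of 198 same-letter pairs had a residual correlation over 0.1, and a fit with the replicate block changed no call. Depth is unknown, so counting error could not be set beside the spread between libraries.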
